A study of Mus musculus with 8 samples.

Results

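The 32 genes described here serve cholesterol synthesis, its control by SREBP, fatty acid synthesis and cholesterol efflux, and their RNA was measured in mouse colon fibroblasts with and without the transcription factor Zeb1. They were chosen by symbol: 18 enzymes of sterol synthesis, 6 genes of SREBP control and sterol transport, 5 genes of fatty acid synthesis and 3 genes of efflux. The list is a selection from these pathways, and all 32 were found among the 45321 genes summed from the deposited transcripts and passed the expression filter that kept 12963 genes for testing. Across both genotypes 2 of the 32 passed the test, Fdft1 and Insig1, both higher without Zeb1. Of all tested genes 16.2% passed it, 7.54% higher, so this is no larger a share than the background. Levels also differed between cultures of a genotype: Fib-Ctrl line 2 held the least RNA for 24 of the 32 genes, against 26.5% of all tested genes.

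The 8 libraries came from adherent fibroblasts that had grown out of colon fragments freed of crypts and were kept in serum-containing medium. Fib-Ctrl cultures were Zeb1 flox/flox (4 libraries) and Fib-ΔZeb1 cultures Zeb1 del/del (4 libraries), and no treatment is given for either. The sample titles number 2 cultures in each genotype, line 1 and line 2, with 2 replicate libraries apiece, so a line is 1 culture and its replicates need not be separate animals. Cre activity was induced in the dish. The sources used here do not give the Cre driver of these cultures, the treatment of Fib-Ctrl at that step, or the age and sex of the mice, so genotype and Cre exposure cannot be told apart. P-values over the 8 libraries count replicates of a culture as independent samples. They measure the spread between these libraries, which may be technical within a culture.

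Each library held between 18852422 and 25540529 reads assigned to transcripts. Zeb1 itself lay between 92.1 and 98.5 CPM (the gene's share of its library's reads, on the usual scale) in Fib-Ctrl and between 11.4 and 18.3 CPM in Fib-ΔZeb1 (log2 fold change -2.73, SE 0.15). Of the marker lists, the 9 fibroblast markers had the highest sum in every library. It was 41603 to 52488 CPM in Fib-Ctrl and 12625 to 24188 CPM in Fib-ΔZeb1, with Col1a1 at 19536 to 26405 and 4189 to 10113 CPM. TPM, the second unit, divides by transcript length before it is scaled to the library. Because both are shares of a library, CPM were scaled with TMM factors before comparison. TPM were not scaled in this way. All 6 markers of adipocytes, cells known for fatty acid synthesis, stayed below 1 CPM in every library, and Cidec and Retn had no read. Of 6 immune markers 4 stayed below 1 CPM everywhere, and Adgre1 had no read. Epithelial markers summed to 2.39 to 5.25 CPM in Fib-Ctrl and 20.1 to 131 CPM in Fib-ΔZeb1, led by Krt18 in line 1 (42.2 and 120 CPM) and by Krt19 in line 2 (11.9 and 19.8 CPM). Epcam was at most 0.0582 CPM in Fib-Ctrl and 1.81 to 4.51 CPM in Fib-ΔZeb1, and Cdh1 reached at most 0.41 CPM in any library. The part of these marker differences in the values below was not tested. Fib-ΔZeb1 line 1 had Xist reads (mean 182 CPM of 2 libraries) and no Ddx3y reads, and the other 3 cultures had the reverse. The cultures numbered line 1 therefore differed in sex, as did the Fib-ΔZeb1 cultures. A shared line number does not show that a Fib-Ctrl and a Fib-ΔZeb1 culture came from 1 animal.

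Cells make cholesterol from acetyl units by way of mevalonate, squalene and lanosterol. SREBP proteins, encoded by Srebf1 and Srebf2, are held in the endoplasmic reticulum by SCAP and INSIG proteins when sterols are plentiful. When sterols run low SCAP escorts them to the Golgi, where they are cleaved, and the released part enters the nucleus and switches on genes of sterol and fatty acid synthesis. Excess sterol activates LXR receptors, which raise genes of efflux such as Abca1 and Abcg1. In fibroblasts in culture this feedback loop is a classical model of cholesterol homeostasis.

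RefSeq promoter sequences (build GRCm38.p6, 250 bases before to 50 after each annotated start) were at hand for 25 of the 32 genes. Entries for Fdft1, Fdps, Sqle, Scd1, Scd2, Abcg1 and Stard4 were not among them. Stretches of 200 bases before the start are shown for 4 enzymes, to set promoters of genes whose RNA differed between line 2 cultures (Hmgcs1, Mvd, Sc5d) beside that of a gene not called there (Mvk). Each is written 5′ to 3′ on the gene's strand, and capitals mark the NF-Y box CCAAT or its reverse complement ATTGG and, in Hmgcs1, the sterol regulatory element TCACNCCAC, the 9 letters searched for SREBP binding, on both strands. The positions are chr13:119690151-119690350 (plus strand), chr8:122443423-122443622 (minus strand), chr9:42264301-42264500 (minus strand) and chr5:114444069-114444268 (plus strand).
Hmgcs1: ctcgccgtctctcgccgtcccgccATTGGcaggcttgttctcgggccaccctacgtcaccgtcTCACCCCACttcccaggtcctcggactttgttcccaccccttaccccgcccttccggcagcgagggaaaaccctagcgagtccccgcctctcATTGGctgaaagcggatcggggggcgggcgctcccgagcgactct
Mvd: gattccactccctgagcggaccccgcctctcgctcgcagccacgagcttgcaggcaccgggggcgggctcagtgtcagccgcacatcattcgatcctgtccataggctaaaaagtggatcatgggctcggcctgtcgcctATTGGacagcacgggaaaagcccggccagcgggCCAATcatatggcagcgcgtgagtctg
Sc5d: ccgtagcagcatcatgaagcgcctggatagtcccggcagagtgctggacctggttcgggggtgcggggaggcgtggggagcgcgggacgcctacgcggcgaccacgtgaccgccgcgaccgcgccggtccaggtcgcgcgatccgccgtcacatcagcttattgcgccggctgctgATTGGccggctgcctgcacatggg
Mvk: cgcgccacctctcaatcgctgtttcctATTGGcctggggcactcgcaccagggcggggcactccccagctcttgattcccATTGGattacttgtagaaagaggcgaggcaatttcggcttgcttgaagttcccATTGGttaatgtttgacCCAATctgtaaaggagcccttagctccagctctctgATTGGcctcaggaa
In these 200 bases Mvk held 5 NF-Y boxes, Hmgcs1 2, Mvd 2 and Sc5d 1. In the 300-base window Hmgcs1 held 4 and Mvk 5, the most in any window of the 25 genes. The 4 enzymes are examples, and their counts do not show how the boxes relate to the RNA differences. Among the 25 genes with a promoter entry 21 (84.0%) held CCAAT in at least 1 300-base window on either strand. The share was 41.1% of 27025 genes with an entry and 43.3% of those that were also tested here. A gene with several annotated starts counted if any of its windows held the motif, and the 25 genes had 33 windows. Insig2 held CCAAT only at the start of its transcript Insig2-202, which had 9.5 reads in all. The sterol regulatory element occurred in 1 of the 25 (4.0%, Hmgcs1) and in 1.44% of all genes. The E-box ATCACGTGA, also bound by SREBP, occurred in 0 of the 25 and in 0.374% of all genes. Of the E-boxes that ZEB1 is known to bind, CAGGTG occurred in 6 of the 25 (24.0%) against 22.6% of all genes and CAGGTA in 1 of the 25 (4.0%, Lss) against 13.6%. A match in these letters is a description of the window, and the libraries hold no measurement of binding.

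**Figure D1:**
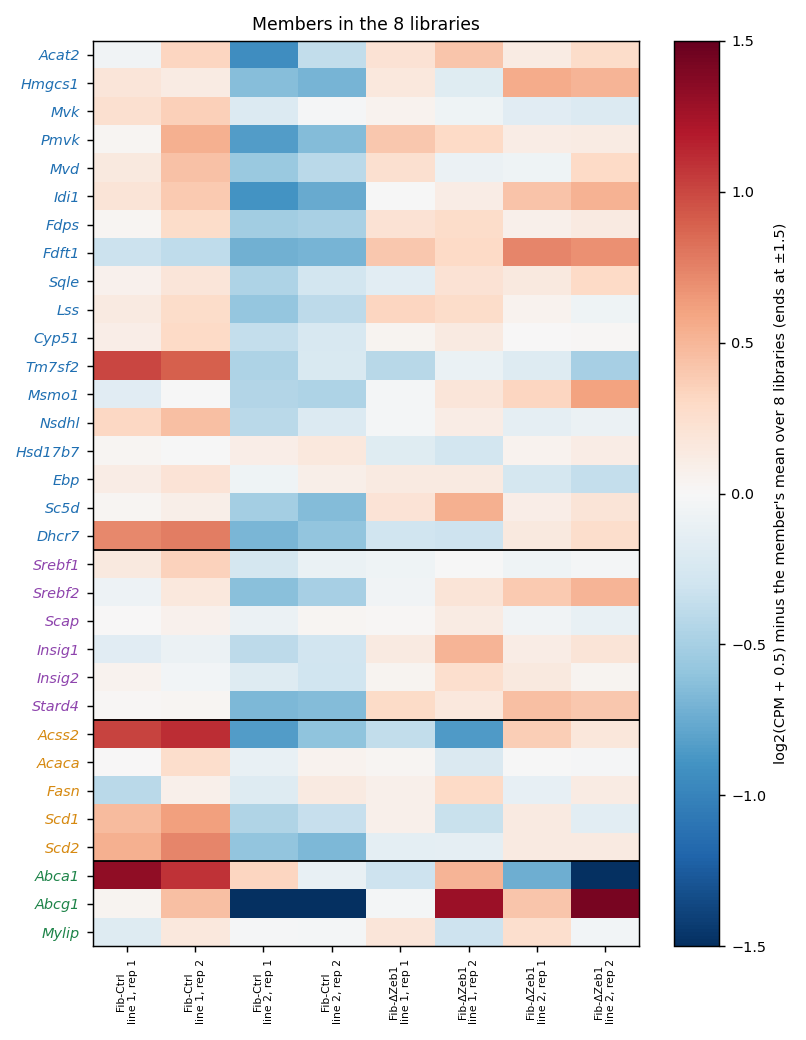
Level of each of the 32 genes (rows, ordered by role and coloured as sterol synthesis blue, SREBP control and sterol transport purple, fatty acid synthesis orange, efflux green) in the 8 libraries (columns), as log2(CPM + 0.5) minus the gene's mean over the libraries; red is higher and blue is lower. The columns of Fib-Ctrl line 2 are blue for most rows, and 24 of the 32 genes had their lowest culture mean there.

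The most abundant sterol enzymes per length were Fdps, which makes farnesyl diphosphate (330 ± 93.0 TPM in Fib-Ctrl and 452 ± 20.4 TPM in Fib-ΔZeb1, SD, n = 4 each), and Hmgcs1, which makes HMG-CoA (127 ± 42.3 and 200 ± 48.5 TPM). Tm7sf2, a sterol C14 reductase, was the least abundant at 24.3 TPM over the 8 libraries. Summed over the 18 sterol enzymes, the TPM was 1827 and 1942 in Fib-Ctrl line 1 (replicates 1 and 2), 1122 and 1205 in Fib-Ctrl line 2, 1973 and 1965 in Fib-ΔZeb1 line 1, and 2119 and 2179 in Fib-ΔZeb1 line 2. The Fib-Ctrl line 2 libraries stood below the other 6, and the remaining libraries of the genotypes lay close together. In TPM Fib-Ctrl line 1 replicate 2 was only slightly below Fib-ΔZeb1 line 1. In TMM-scaled CPM these cultures overlapped, at 2208 and 2430 in Fib-Ctrl line 1 and 2197 and 2270 in Fib-ΔZeb1 line 1. The 6 control and transport genes summed to 262 and 269 TPM in Fib-Ctrl line 2, to 359 and 381 TPM in Fib-Ctrl line 1 and to 409 to 472 TPM in Fib-ΔZeb1. In TMM-scaled CPM Fib-Ctrl line 1, at 741 and 817, overlapped Fib-ΔZeb1, at 771 to 919. The fatty acid genes, led by the desaturase Scd2, summed to 600 and 616 TPM in Fib-Ctrl line 2, to 1148 and 1272 TPM in Fib-Ctrl line 1 and to 849 to 1014 TPM in Fib-ΔZeb1. Fatty acid genes were thus the role in which Fib-Ctrl line 1 exceeded every Fib-ΔZeb1 library. Efflux genes were scarce, at 9.93 to 13.9 TPM in Fib-Ctrl and 13.2 to 15.8 TPM in Fib-ΔZeb1.

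**Figure D2:**
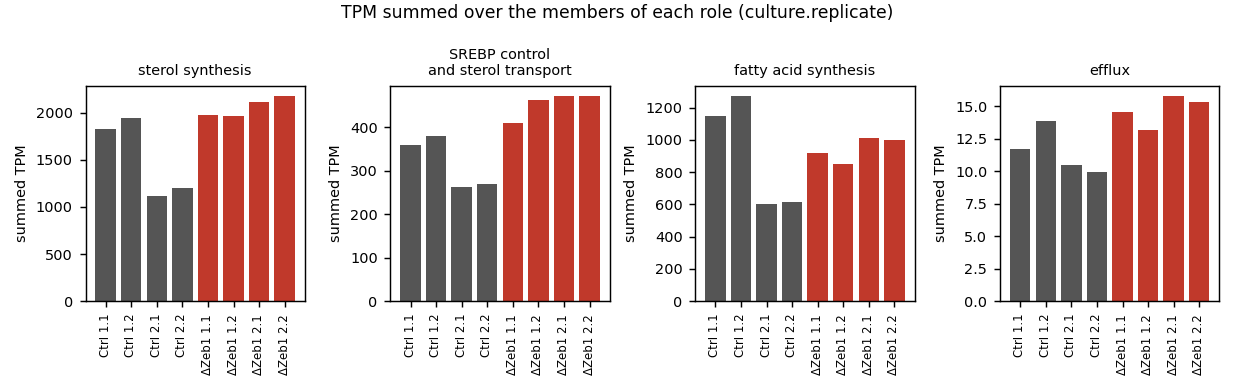
TPM (y axis, linear from 0) summed over the genes of each role in each library (x axis, labelled by genotype, line and replicate; grey Fib-Ctrl, red Fib-ΔZeb1). Fib-Ctrl line 2 is the lowest culture in every role, and fatty acid genes are highest in Fib-Ctrl line 1, at 1148 and 1272 TPM.

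The first comparison asked how the genes differed between genotypes over all 8 libraries. Fdft1 and Insig1 were called higher in Fib-ΔZeb1 and no gene was called lower (edgeR quasi-likelihood test, Benjamini-Hochberg adjusted p under 0.05 over 12963 genes). Over all tested genes 16.2% were called, 7.54% higher and 8.65% lower, so 2 of 32 is no larger a share than the background. At an unadjusted p under 0.05 there were 6 higher and 0 lower, and the count over all genes is not given here. DESeq2 called 4 higher and 0 lower, beside 1544 higher and 1669 lower of 12958 genes. Scaling by library size alone moved the median of all genes by 0.17 and the share of calls that were higher from 46.6% to 76%. It called 7 of the 32 genes higher and 0 lower, beside 2272 higher and 719 lower of all 12963. The libraries of the genotypes did not overlap for 4 of the 32 genes, Fdft1, Insig1, Sc5d and Stard4, all higher in Fib-ΔZeb1, against 24.3% of all tested genes in either direction and 12.0% with Fib-ΔZeb1 higher. The median log2 fold change was 0.16 over the 32 genes and 0.00 over all genes, with 19 genes above 0 and 13 below. By role, 1 of 18 sterol enzymes, 1 of 6 control genes, 0 of 5 fatty acid genes and 0 of 3 efflux genes were called.

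Fdft1, squalene synthase and the first enzyme committed to sterols (ENSMUSG00000021273.10, chromosome 14, 63145150 to 63179578, minus strand), was at 78.3 and 75.0 CPM in Fib-Ctrl line 1, 58.9 and 59.9 in Fib-Ctrl line 2, 129 and 120 in Fib-ΔZeb1 line 1, and 163 and 158 in Fib-ΔZeb1 line 2. Every Fib-ΔZeb1 library exceeded every Fib-Ctrl library, and replicates of a culture differed far less than the cultures did. The log2 fold change was 1.07 (SE 0.15, 95% interval 0.73 to 1.40, adjusted p = 0.00426). It stayed called without any single library and without any of the 4 cultures, but not when reads were summed per culture to compare 2 with 2. Fdft1 lies on a chromosome whose genes were shifted in the same direction: over 436 tested genes of chromosome 14 the median was 0.36, and 25.5% were called higher against 6.92% on the other chromosomes. Within 1000000 bases of Fdft1 lay 9 other tested genes, among them Gata4 at 9.87 (adjusted p = 0.000485), Rnaseh2b at 0.68 (adjusted p = 0.0434) and Ints6 at 0.61 (adjusted p = 0.0188). Ctsb, which overlaps Fdft1 by 774 bases on the opposite strand, was at 0.09 (SE 0.13, adjusted p = 0.685). The part of the chromosome in the Fdft1 value was not tested.

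Insig1, the sterol-sensing retention factor that is itself a classical SREBP target (ENSMUSG00000045294.11, chromosome 5, 28071363 to 28078662, plus strand), was at 101 and 107 CPM in Fib-Ctrl line 1, 86.7 and 93.1 in Fib-Ctrl line 2, 125 and 163 in Fib-ΔZeb1 line 1, and 123 and 131 in Fib-ΔZeb1 line 2. The genotypes did not overlap, but the gap between 107 and 123 CPM was smaller than the spread of Fib-ΔZeb1. The log2 fold change was 0.48 (SE 0.12, 95% interval 0.21 to 0.76, adjusted p = 0.0293), and the median of chromosome 5 was -0.01. The call was lost on leaving out Fib-Ctrl line 1 replicate 1, either library of Fib-Ctrl line 2, or replicate 2 of either Fib-ΔZeb1 line, with log2 fold changes of 0.39 to 0.53 over the 8 ways of leaving a library out. It was also lost without Fib-Ctrl line 2 (0.38) and without either Fib-ΔZeb1 culture (0.39 and 0.57), with reads summed per culture (0.49), and in limma-voom with a correlation within lines (0.48), where Fdft1 was the 1 gene called. Msmo1, a methylsterol oxidase, missed the threshold at 0.54 (SE 0.16, adjusted p = 0.0503), as did Stard4, a carrier of cholesterol inside the cell, at 0.61 (SE 0.19, adjusted p = 0.0593). Sc5d, the desaturase that makes 7-dehydrocholesterol, was at 51.5 to 86.0 CPM in Fib-Ctrl and 87.0 to 118 CPM in Fib-ΔZeb1 (log2 fold change 0.50, SE 0.19, adjusted p = 0.104). These 3 genes are given as values and were not called.

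**Figure D3:**
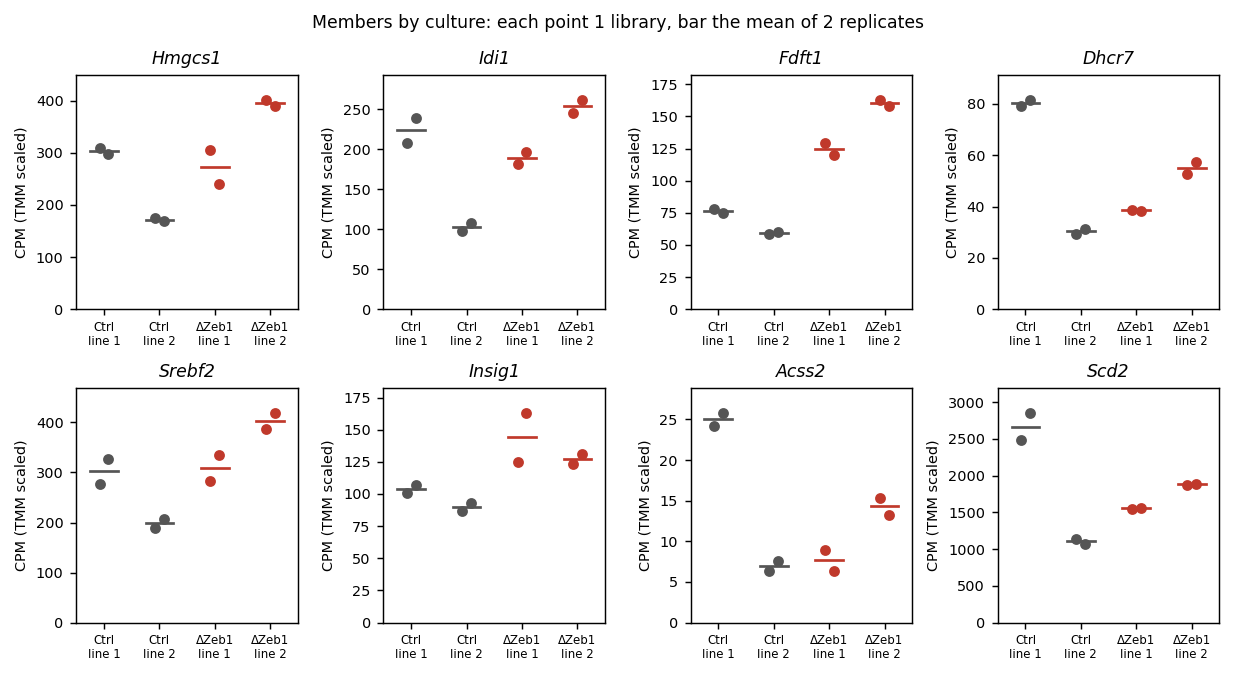
CPM after TMM scaling (y axes, linear from 0) of 8 genes in the 4 cultures; each point is 1 library (grey Fib-Ctrl, red Fib-ΔZeb1) and each bar the mean of 2 replicates. Fdft1 and Insig1 do not overlap between genotypes, whereas for Hmgcs1, Idi1, Dhcr7, Srebf2, Acss2 and Scd2 the lowest culture is Fib-Ctrl line 2 and the libraries of Fib-Ctrl line 1 overlap those of Fib-ΔZeb1 or lie above them.

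The Fib-Ctrl cultures differed from each other. Fib-Ctrl line 2 was the culture with the lowest mean for 24 of the 32 genes (15 of 18 sterol enzymes, 5 of 6 control genes, 3 of 5 fatty acid genes and 1 of 3 efflux genes), where the same held for 26.5% of all tested genes. Both of its libraries lay below the other 6 for 22 of the 32 genes, against 13.0% of all genes, and never above them. Fib-Ctrl line 1 lay above the other 6 libraries for 9 of the 32, against 12.9%, and Fib-ΔZeb1 line 2 for 6, against 11.1%. In the test of Fib-Ctrl line 2 against line 1 21 of the 32 genes were lower and 0 higher. Of all tested genes 17.0% were called in that test, 8.72% lower and 8.32% higher. Leaving out Fib-Ctrl line 2 replicate 1, or replicate 2 of either Fib-Ctrl culture, gave fewer calls among the 32 genes and among all tested genes. Such a fit leaves 1 library in a culture, so the drop cannot show whether the pattern rests on the library left out. The median log2 difference over the 32 genes was -0.66 and over all genes -0.01, and 30 of the 32 were below 0.

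Dhcr7, which converts 7-dehydrocholesterol to cholesterol (ENSMUSG00000058454.15, chromosome 7, 143823145 to 143848410, plus strand), was at 79.3 and 81.6 CPM in Fib-Ctrl line 1, 29.4 and 31.4 in Fib-Ctrl line 2, 38.7 and 38.4 in Fib-ΔZeb1 line 1, and 52.8 and 57.2 in Fib-ΔZeb1 line 2. All Fib-ΔZeb1 libraries lay between the Fib-Ctrl cultures. Fib-Ctrl line 2 was lower than line 1 by a log2 difference of -1.40 (SE 0.10, adjusted p = 0.000646). Idi1, isopentenyl diphosphate isomerase (ENSMUSG00000058258.14, chromosome 13, 8885501 to 8892451, plus strand), was at 208.1 and 239 CPM in Fib-Ctrl line 1, 98.0 and 108 in Fib-Ctrl line 2, 182 and 197 in Fib-ΔZeb1 line 1, and 245 and 262 in Fib-ΔZeb1 line 2. Both libraries of Fib-Ctrl line 2 lay below the other 6 and both of Fib-ΔZeb1 line 2 above them, and the difference of Fib-Ctrl line 2 from line 1 was -1.12 (SE 0.12, adjusted p = 0.0019). Hmgcs1 (ENSMUSG00000093930.2, chromosome 13, 119690379 to 119708260, plus strand) was at 309 and 297, 175 and 169, 305 and 240, and 402 and 390 CPM in the same order of cultures, a difference between Fib-Ctrl lines of -0.81 (SE 0.13, adjusted p = 0.00733). The other sterol enzymes called lower in Fib-Ctrl line 2 ranged from Tm7sf2 at -1.34 and Pmvk, phosphomevalonate kinase, at -1.06 to Fdft1 at -0.37. Hsd17b7, Ebp, Msmo1 and Sqle were not called, at 0.12, -0.14, -0.36 and -0.48.

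Srebf2, the SREBP gene that mainly serves sterol synthesis (ENSMUSG00000022463.8, chromosome 15, 82147181 to 82205379, plus strand), had 278 and 327 CPM in Fib-Ctrl line 1, 190 and 207.2 in Fib-Ctrl line 2, 284 and 335 in Fib-ΔZeb1 line 1, and 386 and 419 in Fib-ΔZeb1 line 2. Fib-Ctrl line 2 was lower than line 1 by -0.61 (SE 0.13, adjusted p = 0.0221), and Fib-Ctrl line 1 overlapped Fib-ΔZeb1 line 1. Srebf1, which mainly serves fatty acid synthesis, was lower there by -0.43 (adjusted p = 0.0371) and Stard4 by -0.69 (adjusted p = 0.0042). Scap, Insig1 and Insig2 were not called between the Fib-Ctrl lines, at -0.06, -0.21 and -0.26. Among fatty acid genes the largest difference was that of Acss2, the cytosolic enzyme that makes acetyl-CoA from acetate, at 24.2 and 25.8 CPM in Fib-Ctrl line 1 and 6.35 and 7.59 CPM in Fib-Ctrl line 2 (-1.84, SE 0.21, adjusted p = 0.00274). Scd2 (ENSMUSG00000025203.6, chromosome 19, 44293674 to 44306864, plus strand) went from 2479 and 2853 CPM to 1139 and 1076 CPM (-1.27, SE 0.12, adjusted p = 0.00153), and Scd1 from 589 and 649 to 310 and 334 CPM (-0.94, SE 0.17, adjusted p = 0.0112). Both desaturases make monounsaturated fatty acids and lie on chromosome 19, where the median of all genes was -0.37 in this comparison. As close paralogs they may share reads that the counting had to split. Acaca and Fasn, the carboxylase and the synthase of the pathway, were not called, at -0.17 and 0.12.

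The Fib-ΔZeb1 cultures differed less from each other. They differed in sex as well as in culture, and these cannot be told apart. Hmgcs1 (0.54, adjusted p = 0.0491), Dhcr7 (0.51, adjusted p = 0.0279) and Acss2 (0.91, adjusted p = 0.0462) were higher in line 2 than in line 1 and 0 of the 32 were lower, with 6.87% of all genes called (3.39% higher and 3.48% lower). The median over the 32 genes was 0.02. With the replicate number as a block 8 genes were called, 7 of them higher, and Ebp was lower. The block also raised the calls over all genes, from 439 higher and 451 lower to 879 and 865. Leaving out any 1 library gave fewer calls among the 32 genes. Calls over all tested genes fell too, except without Fib-ΔZeb1 line 1 replicate 2. Such a fit leaves 1 library in a culture, so the drop cannot show whether the calls rest on the library left out. Between replicate 2 and replicate 1 0 genes of the 32 were called by edgeR (0.0231% of all genes, 0.0154% higher and 0.00771% lower). At an unadjusted p under 0.05 7 were higher in replicate 2. DESeq2 called 2, Acat2 and Fasn, both higher in replicate 2, beside 305 higher and 362 lower over all genes.

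The genotypes were next compared within each line number, with 2 libraries against 2. These contrasts compare single cultures, and a shared number does not show a shared animal. In line 1, Fdft1 (0.70, SE 0.09, adjusted p = 0.00264) and Insig1 (0.47, SE 0.14, adjusted p = 0.0384) were higher in Fib-ΔZeb1. Lower there were Acss2 (-1.71, SE 0.21), Tm7sf2 (-1.25, SE 0.19), Dhcr7 (-1.06, SE 0.10), Scd2 (-0.78, SE 0.12) and Scd1 (-0.66, SE 0.17), 2 sterol enzymes and 3 fatty acid genes. This made 7 of 32 called against 27.4% of all genes, and 49.5% of the calls over all genes were higher. Scaled by library size alone, 68.7% of all calls were higher, with 2872 genes higher and 1311 lower of 12963. Of the 32 genes 4 were then higher and 4 lower. The median over the 32 was -0.05 in the main test. The line 1 cultures differed in sex as well as in genotype, and these cannot be told apart. Ebp and Nsdhl, the X-linked sterol enzymes of the list, were at -0.02 and -0.34 and were not called.

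In line 2, 18 of the 32 genes were higher in Fib-ΔZeb1 and 0 lower, against 14.1% of all genes higher and 14.6% lower (28.8% called). Scaled by library size alone, 73.1% of all calls were higher in place of 49.1%, with 3256 genes higher and 1198 lower of 12963. Of the 32 genes 22 were then higher and 0 lower. The 18 of the main test were 12 of 18 sterol enzymes and 3 of 6 control genes (Insig1, Srebf2 and Stard4). They also held 2 of 5 fatty acid genes (Acss2 and Scd2) and 1 of 3 efflux genes (Abcg1). The largest among the sterol enzymes were Fdft1 at 1.44 (SE 0.09, adjusted p = 0.00018), Idi1 at 1.30 (SE 0.12, adjusted p = 0.000617) and Hmgcs1 at 1.20 (SE 0.13, adjusted p = 0.00112). Lss, lanosterol synthase, was the smallest called at 0.48 (SE 0.11, adjusted p = 0.0167). The median over the 32 genes was 0.54 and over all genes 0.00. Cyp51, Tm7sf2, Nsdhl, Mvk, Hsd17b7 and Ebp were the sterol enzymes not called, between -0.34 and 0.31. These contrasts share the Fib-Ctrl line 2 libraries with the test between the Fib-Ctrl lines, so the same low libraries enter both. Leaving out Fib-Ctrl line 2 replicate 1 or Fib-ΔZeb1 line 2 replicate 2 left the fewest calls among the 32 genes. Calls over all tested genes fell in these fits as well. Each leaves 1 library in a culture, so the drop cannot show whether the pattern rests on the library left out. Over all libraries, removing the whole Fib-Ctrl line 2 culture changed the genotype test to 1 gene higher (Fdft1) and 4 lower (Tm7sf2, Dhcr7, Scd1 and Scd2). Of 13687 genes tested in that fit 911 were higher and 1109 lower. Removing Fib-Ctrl line 1 changed the test to 15 higher and 0 lower, beside 994 higher and 1053 lower of 13539 genes. Both removals were chosen after seeing the data.

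**Figure D4:**
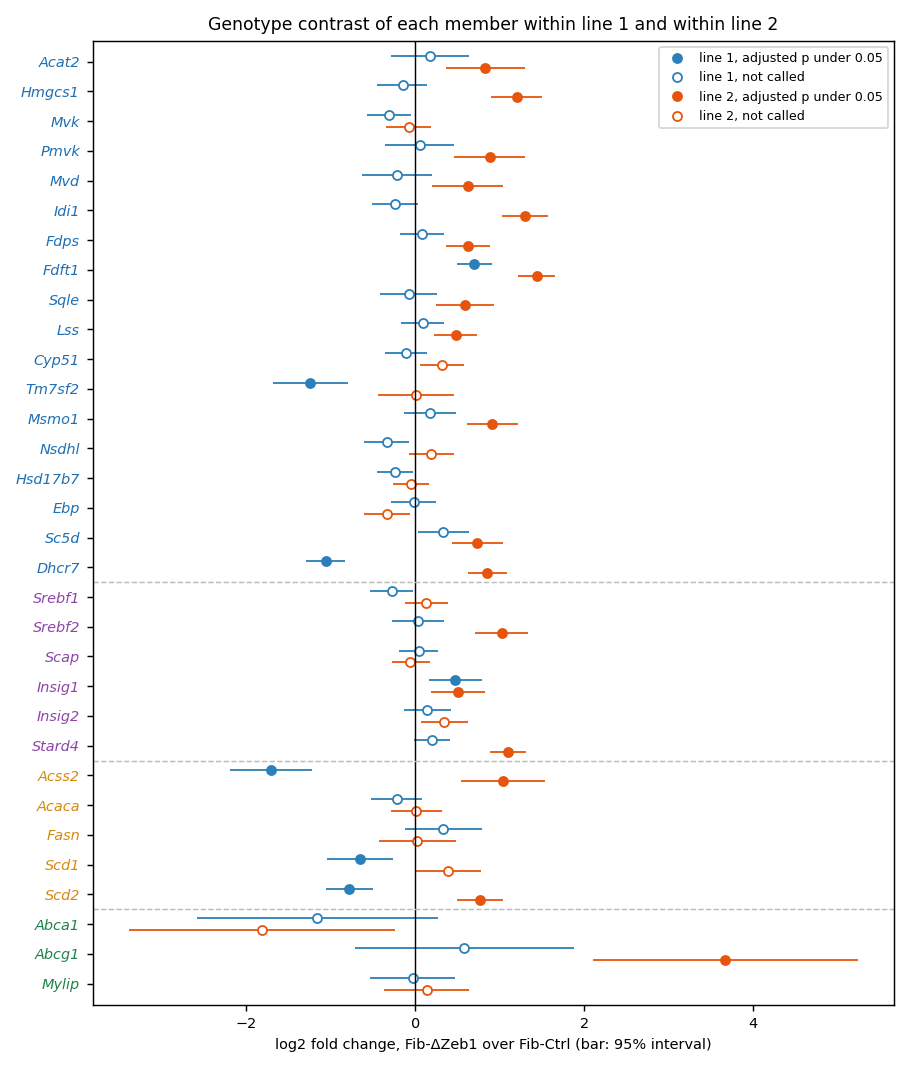
Log2 fold change of Fib-ΔZeb1 over Fib-Ctrl (x axis; points, with bars for the 95% interval) within line 1 (blue) and within line 2 (orange) for each of the 32 genes (rows, by role); filled points passed an adjusted p of 0.05. In line 1, 2 genes were higher and 5 lower, and in line 2, 18 were higher and 0 lower.

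The genotype difference itself differed between the line numbers for 11 of the 32 genes, always with the larger value in line 2. Only the line 1 cultures differed in sex, so sex and line number cannot be told apart here. Of all genes 15.3% were called, 7.74% with the larger value in line 2 and 7.55% with the smaller. The largest were Acss2 at 2.75 (95% interval 2.05 to 3.44), Dhcr7 at 1.92 (1.59 to 2.25), Scd2 at 1.55 (1.15 to 1.94), Idi1 at 1.54 (1.16 to 1.92) and Hmgcs1 at 1.35 (0.93 to 1.77), as log2 differences of line 2 minus line 1. For Acss2, Dhcr7 and Scd2 the sign itself changed, from lower in Fib-ΔZeb1 line 1 to higher in Fib-ΔZeb1 line 2, and both contrasts were called. Fdft1 was higher in both and more so in line 2, by 0.74 (0.44 to 1.03). Insig1 differed by 0.03 between the lines (95% interval -0.42 to 0.47). With the replicate number as a block 20 genes were called in place of 11, all in the same direction. The block also raised the calls over all genes. They went from 1003 with the larger value in line 2 and 979 with the smaller to 1552 and 1562. The count fell below 11 without replicate 1 of Fib-Ctrl line 2, replicate 1 of Fib-ΔZeb1 line 2, or replicate 2 of Fib-Ctrl line 1. Calls over all tested genes fell in these fits as well. Each leaves 1 library in a culture, so the drop cannot show what rests on the library left out.

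Chromosomes shifted as a whole in these cultures, which touches some members. In line 1 the median of the 453 tested genes of chromosome 19 was -0.42, and in line 2 it was 0.30, with Scd1, Scd2 and Tm7sf2 on it. Set against that median, Scd1 was at -0.24 in line 1 and 0.09 in line 2, Scd2 at -0.36 and 0.46, and Tm7sf2 at -0.82 and -0.29. Chromosome 13, with Hmgcs1, Idi1 and Mylip, had medians of -0.14 and 0.24, against which Hmgcs1 was at -0.01 and 0.96 and Idi1 at -0.10 and 1.06. For Acss2 and Dhcr7 the medians of their chromosomes were 0.09 and -0.19 in line 1. Relative to the chromosome median, the 32 genes had a median of -0.09 in line 1 and 0.54 in line 2, and 28 of them lay above it in line 2. Between the Fib-Ctrl lines the median was -0.59 relative to the chromosomes, with 29 of 32 below. The part of chromosome-wide shifts in the gene values was not tested further.

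**Figure D5:**
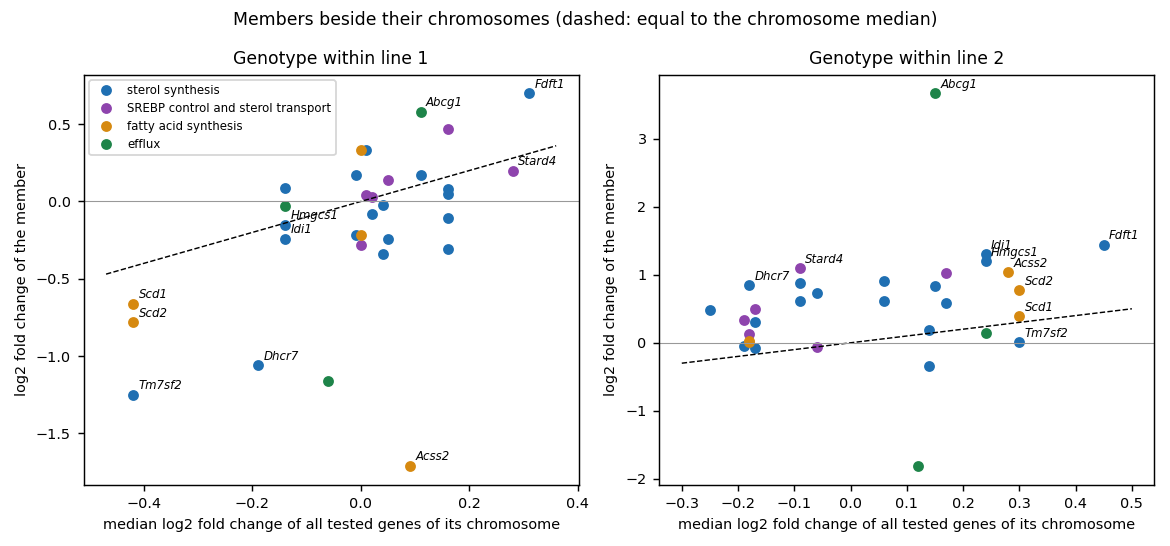
Log2 fold change of Fib-ΔZeb1 over Fib-Ctrl for each gene (y axis) against the median of all tested genes on its chromosome (x axis), within line 1 (left) and line 2 (right), coloured by role; the dashed line marks equal values. In line 1 Scd1, Scd2 and Tm7sf2 share a chromosome median of -0.42, and in line 2 most genes lie above the dashed line, 28 of 32.

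Srebf1 and Insig2 were also read by transcript. For Srebf1 (chromosome 11, 60199089 to 60222581, minus strand) the transcript Srebf1-201, with its 5′ end at 60220604, held 28.8 to 38.4 TPM and a shorter one, with its 5′ end at 60210465, held 11.4 to 27.0 TPM. The lowest libraries of each were those of Fib-Ctrl line 2. Srebf1-204, whose 5′ end at 60222581 is the most upstream, had 20 reads over all 8 libraries and lay between 0 and 6.08 TPM. For Insig2, which like Insig1 retains SCAP but is not a classical SREBP target, Insig2-201 held 19.7 to 32.8 TPM and was the most abundant of 9 transcripts that reached 0.5 TPM in any library. The others of Insig2 were at 0 in at least 1 library, so their split is not reliable at this depth. As a gene Insig2 was at 35.3 to 45.2 CPM in Fib-Ctrl and 44.7 to 51.9 CPM in Fib-ΔZeb1 (log2 fold change 0.24, SE 0.11, adjusted p = 0.164). Scap, the escort of SREBP, was the steadiest of the 32, at 72.1 to 85.0 CPM over the 8 libraries (-0.01, 95% interval -0.21 to 0.19).

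No fatty acid gene was called between genotypes over all libraries. Fasn was at 457 and 638 CPM in Fib-Ctrl line 1, 530 and 664 in Fib-Ctrl line 2, 636 and 745 in Fib-ΔZeb1 line 1, and 556 and 658 in Fib-ΔZeb1 line 2. Replicate 2 was above replicate 1 in each culture, so replicates spread as widely as cultures (log2 fold change of genotype 0.18, SE 0.15, adjusted p = 0.432). Acaca was at 0.01 in line 2 and -0.22 in line 1, and Scd1, Scd2 and Acss2 over both lines at -0.21, -0.14 and -0.54, none called. The signs of Scd2 and Acaca turned when libraries were scaled by size alone (0.04 and 0.07). Acss2 overlaps Gss and Ggt7 on the opposite strand, by 22544 and 290 bases, and the counting strand is not given in the sources used here.

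The efflux genes rested on few reads. Abcg1, a sterol exporter and LXR target, was at 3.02 and 4.17 CPM in Fib-Ctrl line 1, 0.641 and 0.361 in Fib-Ctrl line 2, 2.86 and 7.87 in Fib-ΔZeb1 line 1, and 4.06 and 8.70 in Fib-ΔZeb1 line 2, with 739 reads in all and 7 in its lowest library. Fib-Ctrl line 2 was low by -2.84 against line 1 (SE 0.68, adjusted p = 0.0298), and within line 2 Fib-ΔZeb1 was higher by 3.67 (SE 0.67, adjusted p = 0.00768), while over all libraries the value of 1.51 was not called (SE 0.73, adjusted p = 0.188). Abca1, the exporter to apolipoprotein A1, went the other way at 8.06, 6.69, 3.73 and 2.63 CPM in Fib-Ctrl and 2.24, 4.35, 1.55 and 0.294 CPM in Fib-ΔZeb1 (-1.32, SE 0.69, adjusted p = 0.216). The genotypes overlapped, and 614 reads stood behind it. Mylip, a ligase that degrades lipoprotein receptors, was at 13.9 to 20.6 CPM throughout (0.06, SE 0.16). Of the 3 efflux genes 0 were called by edgeR or by DESeq2 between genotypes over all libraries.

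Neighbouring lists were counted in the same genotype test, in which 7.54% of all tested genes were higher and 8.65% lower. Of 14 other genes of the SREBP axis 1 was higher, Nfya (log2 fold change 0.40, SE 0.09, adjusted p = 0.02), a subunit of the NF-Y factor that binds CCAAT, at 40.1 to 47.5 CPM in Fib-Ctrl and 56.4 to 61.2 CPM in Fib-ΔZeb1, and 0 were lower. Of 16 tested genes of further fatty acid synthesis 0 were higher and 2 lower: Gpam, which starts glycerolipid synthesis (-1.08, SE 0.15, adjusted p = 0.00479), and Slc25a1, the mitochondrial citrate carrier (-0.65, SE 0.14, adjusted p = 0.0185). The fatty acid desaturases Fads1 and Fads2, on chromosome 19 like Scd1 and Scd2, were at -0.49 and -0.60 in line 1, both called lower, and Fads1 was called higher in line 2 at 0.55. Of 7 tested LXR receptors and targets 0 were higher and 3 lower, Smpdl3a (-2.07, SE 0.31, adjusted p = 0.00578), Pltp, a phospholipid transfer protein (-2.41, SE 0.44, adjusted p = 0.0102), and Nr1h2, LXR beta (-0.45, SE 0.11, adjusted p = 0.0244). The median of these 7 was -0.20. Nr1h2 falls outside the rule for named genes and was chosen after its values were seen, as were Fads1 and Fads2.

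Of 16 tested genes of sterol uptake, esterification and oxysterols 1 was higher and 5 lower, against 7.54% and 8.65% of all genes. The apolipoprotein E receptor gene Lrp8 was higher (0.98, SE 0.18, adjusted p = 0.0109), with 25.3 to 38.9 CPM in Fib-Ctrl and 45.8 to 71.4 CPM in Fib-ΔZeb1. Npc2, which hands cholesterol out of lysosomes, was lower (-1.07, SE 0.12, adjusted p = 0.00165), at 340 to 430 CPM in Fib-Ctrl and 156 to 199 CPM in Fib-ΔZeb1. Gramd1b, a carrier of cholesterol from the plasma membrane, was lower too (-0.93, SE 0.16, adjusted p = 0.00904). Of 21 tested genes of lipid storage and fatty acid oxidation 0 were higher and 2 lower, the lipase gene Mgll (-2.17, SE 0.41, adjusted p = 0.0107) and Hadha of mitochondrial oxidation (-0.42, SE 0.09, adjusted p = 0.0196). Their medians were -0.46 and -0.09, beside 0.00 over all genes. The genotypes did not overlap for Lrp8 or Npc2, and unlike most of the 32 genes neither had its lowest level in Fib-Ctrl line 2.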

How the data were processed

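RNA of 8 mouse colon fibroblast cultures or replicates (4 Fib-Ctrl, 4 Fib-ΔZeb1) was sequenced from poly-A libraries. The authors processed reads with the nf-core RNA-seq pipeline 3.11.0, STAR and Salmon on GRCm38, and deposited estimated counts and TPM per transcript for each library. The versions of these tools and the counting strand: not given in the sources used here. A deposited table of the authors' own comparison was not used. Transcripts were summed to genes with GENCODE M21 (98.72% of 109617 matched, and unmatched ones held 0.262 to 0.303% of reads). Estimated counts were rounded, filtered with filterByExpr by genotype, TMM-scaled and tested with edgeR 4.0.16 (quasi-likelihood, Benjamini-Hochberg adjusted p under 0.05), for genotype on its own and for lines in a model of the 4 cultures. limma 3.58.1 and DESeq2 1.42.0 served as alternatives. Only the edgeR fits were run on simulated counts with known changes. The genes scored there for genotype held no spread between cultures, so the simulation cannot show whether genotype p-values hold where cultures differ. In the data the correlation within lines was 0.543. Libraries held 18852422 to 25540529 reads. Changes from replicate 1 to 2 correlated between every pair of cultures (r = 0.17 to 0.38), so the replicate number was fitted as a block in an alternative. The main tests of genotype and lines held no term for it. Replicates differed by more than sampling noise. Members and lists were chosen with earlier results of these data known. Named were all 32 members, Zeb1 and, per pathway list, up to 2 called genes in each direction with the smallest adjusted p. Promoters were RefSeq sequences of GRCm38.p6, and positions of genes are those of GRCm38.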

Additional observations from a re-analysis of the deposited data

Results flagged for a closer look

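For 11 of the 32 genes and for Slc25a1 the genotype difference itself was tested between the line numbers and differed (edgeR quasi-likelihood test, adjusted p under 0.05). As log2 differences of line 2 minus line 1, the sterol enzymes were Dhcr7 at 1.92, Idi1 at 1.54, Hmgcs1 at 1.35, Tm7sf2 at 1.25, Fdft1 at 0.74 and Msmo1 at 0.74. Srebf2 was at 0.99 and Stard4 at 0.90. The fatty acid genes were Acss2 at 2.75, Scd2 at 1.55 and Scd1 at 1.05, and the citrate carrier gene Slc25a1 was at 0.53. These values depend on which Fib-Ctrl culture is set beside which Fib-ΔZeb1 culture, and the numbers do not show that a pair shares an animal. Each value draws on every culture of both genotypes. Only the line 1 cultures differed in sex, which cannot be told apart from line number. Of all tested genes 15.3% were called in the same test.

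Of 84 groups of 4 libraries, 2 held a library far from the other 3 by Dixon's criterion of gap over range, where chance gives about 1 group in 20. Gpam was at 31.9 CPM in Fib-ΔZeb1 line 1 replicate 1 and at 21.7 to 22.5 CPM in the other 3 Fib-ΔZeb1 libraries. Mgll was at 33.2 CPM in Fib-Ctrl line 2 replicate 1 and at 14.1 to 17.1 CPM in the other 3 Fib-Ctrl libraries.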

How the results depend on the processing

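In place of 2 genes higher between genotypes, 7 were called with library size only, 4 by DESeq2, 6 by limma on log2(TPM + 1), 1 by limma-voom with a correlation within lines and 0 with the reads of each line summed; the cause was not tested, except that summing leaves 4 units. Leaving out 1 culture was chosen after seeing the data. It gave 15 higher without Fib-Ctrl line 1, and 1 higher and 4 lower without Fib-Ctrl line 2. It gave 2 higher without Fib-ΔZeb1 line 1 and 1 higher without Fib-ΔZeb1 line 2. Over all tested genes these fits called 994, 911, 818 and 384 higher, and 1053, 1109, 929 and 433 lower, in the order given. Leaving out each library in turn gave 1 to 3 higher and 0 to 0 lower, 5 to 8 calls within line 1, 10 to 20 within line 2, 6 to 14 for the difference between lines, 7 to 22 between the Fib-Ctrl lines, 0 to 2 between the Fib-ΔZeb1 lines and 0 to 0 between replicates. With the replicate number as a block, 20 genes were called for the difference between lines and 8 between the Fib-ΔZeb1 lines. The counts for genotype (2), line 1 (10), line 2 (19) and the Fib-Ctrl lines (23) stayed within 1.5 times. Over all tested genes the block called 1552 higher and 1562 lower for the difference, and 879 and 865 between the Fib-ΔZeb1 lines. It called 920 and 1046 for genotype, 2352 and 2329 in line 1, and 2412 and 2522 in line 2. Between the Fib-Ctrl lines it called 1710 and 1635. Between the Fib-ΔZeb1 lines no filter gave 5 calls and DESeq2 7. Over all genes no filter called 1111 higher and 1108 lower of 21336 there, and DESeq2 834 and 805 of 12963. Between replicates no filter gave 1 call and DESeq2 2, beside 124 higher and 178 lower and 305 and 362 over all genes. The ratio of Fib-ΔZeb1 to Fib-Ctrl for the summed efflux genes was 1.28 in TPM and 1.05 in CPM. TPM were not scaled with TMM factors. Over all tested genes limma on log2(TPM + 1) called 1994 higher and 725 lower between genotypes, against 978 and 1121 by edgeR. Library size only called 2272 and 719, DESeq2 1544 and 1669, limma-voom 114 and 146, and summed lines 9 and 6.

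Of 640 values, 32 genes under each alternative of the genotype test, 555 kept their direction and side of the threshold and 44 changed sign, in 18 genes. None of these was called over all 8 libraries. With library size only the turned values were Nsdhl 0.06, Hsd17b7 0.04, Ebp 0.01, Srebf1 0.08, Scap 0.17, Acaca 0.07 and Scd2 0.04. With limma on log2(TPM + 1) they were Nsdhl 0.09, Hsd17b7 0.11, Dhcr7 0.01, Srebf1 0.10, Scap 0.18, Acaca 0.14, Scd1 0.02 and Scd2 0.16. With no filter Scap was at 0.00. Without the culture Fib-Ctrl line 1 they were Mvk 0.01, Tm7sf2 0.05, Nsdhl 0.27, Dhcr7 0.62, Srebf1 0.14, Scap 0.02, Acss2 0.65, Scd1 0.34 and Scd2 0.63. Without Fib-Ctrl line 2 they were Pmvk -0.07, Mvd -0.20, Idi1 -0.02, Lss -0.06 and Cyp51 -0.15. Hsd17b7 was at 0.01 without Fib-ΔZeb1 line 1, and without Fib-ΔZeb1 line 2 Ebp was at 0.05, Scap at 0.07 and Mylip at -0.02. Leaving out 1 library turned 6 genes, which then ranged from -0.02 to 0.21 for Cyp51, -0.25 to 0.03 for Nsdhl, -0.19 to 0.02 for Srebf1, -0.05 to 0.03 for Scap, -0.34 to 0.13 for Scd2 and -0.02 to 0.16 for Mylip.

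In the shorter promoter window of 150 bases before the start, CCAAT was held by 80.0% of the 25 genes and 31.9% of all genes, counting any annotated start. Each genotype had 2 cultures, so a difference between genotypes rests on them, and the efflux exporters had 614 and 739 reads in all, which limits the precision of their values.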
